A study of Sus scrofa with 70 samples.

Results

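MiRNAs of the imprinted DLK1-DIO3 cluster were examined in 5 reproductive glands of 2 pig breeds. Members were taken by name alone, as all entries of the miRNA table called ssc-miR with 1 of 36 numbers that the cluster is known to hold in mammals. The rule found 21 entries of 743 in the table, under 20 distinct names, because miR-369 was listed 2 times with identical values. Of the 36 numbers, 14 had an entry.

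The study sequenced the testis and epididymis of boars aged 12 months together with 3 accessory glands, the bulbourethral gland, the vesicular gland and the prostate gland. One breed was the Diannan small-ear pig (DSE), and the other was the Banna mini-pig inbred line (BMI), which was bred from DSE by continuous inbreeding. Each combination of breed and gland had 3 small RNA libraries, 3 RNA-seq libraries and 1 Iso-seq library of full-length transcripts, so that 30, 30 and 10 libraries were used here. No animal was treated, and every library came from bulk tissue. The labels number the replicates and do not name the animals, so that p-values measure only the spread between these samples.

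The DLK1-DIO3 cluster is one of the chromosome regions in which the parent of origin decides which copy of a gene is used. The paternal copy expresses the protein-coding genes DLK1, RTL1 and DIO3, and the maternal copy expresses the long non-coding RNA MEG3 together with a large set of small RNAs in the same direction. MiRNAs such as miR-127, miR-136 and miR-432 lie opposite to RTL1 and can pair with its transcript without mismatches. The cluster is known for its role in growth before birth, in muscle and in stem cells, and its miRNAs are thought to be cut from one long maternal transcript.

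In the pig genome (Sscrofa11.1) the cluster was split over 2 sequences. Its hairpins included 5 on the forward strand near the end of chromosome 7, which is 121844099 bp long. These were miR-493 at chr7:121697837-121697919, miR-127 at chr7:121709640-121709720, miR-432 at chr7:121711137-121711216, miR-136 at chr7:121711325-121711414 and miR-370 at chr7:121736893-121736972. The hairpins of miR-127, miR-432 and miR-136 were inside RTL1, which is annotated on the reverse strand at chr7:121707122-121711414. DLK1 was annotated at chr7:121565854-121576654 and the MEG3 locus at chr7:121656237-121689213, both on the forward strand.

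The hairpins of miR-411, miR-299, miR-323, miR-376c, miR-376a, miR-381 and miR-487b were on an unplaced scaffold that also carried DIO3. On that scaffold they lay on the forward strand between positions 29998 and 50578, and DIO3 was at positions 470640 to 505142. No hairpin with the name of miR-369, miR-382 or miR-758 was found in the annotation.

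Mature sequences are shown for the chromosome 7 arms that passed the filter and have a RefSeq position, since miR-127, miR-493-3p and miR-432-5p among them were called below, with the seed (bases 2 to 8) in capitals. They were taken from RefSeq positions on Sscrofa11.1 and are written 5′ to 3′.
miR-127: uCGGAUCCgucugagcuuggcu
miR-493-3p: uGAAGGUCuacugugugccagg
miR-493-5p: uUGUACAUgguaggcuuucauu
miR-432-5p: uCUUGGAGuaggucauugggu
miR-136-5p: aCUCCAUUuguuuugaugaugga
The 5 seeds differed from each other, so that no 2 of these miRNAs share a seed family.

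Precursor hairpins are shown for miR-381, the source of the most abundant member, and for miR-411 and miR-370, which were called between breeds or glands. Capitals mark a mature miRNA that RefSeq annotates, which in miR-381 was the rare 5p arm, and hairpins without capitals had none.
miR-381: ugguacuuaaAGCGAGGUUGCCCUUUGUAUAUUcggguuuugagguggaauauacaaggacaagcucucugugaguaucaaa
miR-411: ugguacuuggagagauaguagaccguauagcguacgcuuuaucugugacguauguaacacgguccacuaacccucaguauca
miR-370: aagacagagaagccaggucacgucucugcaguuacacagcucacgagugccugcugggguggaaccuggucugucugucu
The hairpins of miR-381 and miR-411 both began with the letters UGGUACUU. Searched on the strand of the hairpin, GGUACUU was found in 5 of 7 scaffold hairpins (miR-411, miR-299, miR-323, miR-381 and miR-487b) and in 0 of 5 hairpins on chromosome 7. Among 315 pig miRNA precursors in RefSeq, 2 (0.635%) held these letters. These were MIR361 and MIR381, the latter a member, while miR-411, miR-299, miR-323 and miR-487b were not among them. The 5 of 7 came from another annotation, so the shares are not drawn from the same set. The letters were chosen after the hairpins were read, and the match is a description.

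Depth differed between the glands and, in testis and vesicular gland, between the breeds. Testis libraries held 2.58 to 11.8 M miRNA reads, with 4 of 6 at or below 2.98 M, and libraries of the other 4 glands held 13.1 to 21.7 M. The deeper testis libraries were DSE replicates 2 and 3, with 11.8 and 6.89 M. The paper lists shorter mean small RNA reads for these 2 than for the other testis libraries. A count of 3 reads, taken as the floor, stood for 1.01 to 1.16 RPM in the 4 shallow testis libraries and for 0.138 to 0.230 RPM in the other 4 glands. RPM is the share of a library's miRNA reads, scaled to the same total in each library, so that a value also depends on what other miRNAs take up. BMI libraries were shallower than all DSE libraries in testis (at most 2.72 M against at least 2.98 M reads) and in vesicular gland (at most 16.1 M against at least 19.5 M), and the part of depth in the breed comparisons of these glands was not tested. Floors cover counting error only. In RNA-seq the summed markers of each gland (Leydig cell markers for testis) were higher in all 6 libraries of that gland than in any other library, although KLK4 was at 0 in all prostate gland libraries and PIGR at a median of 2.32 TPM in bulbourethral gland.

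Some libraries stood apart. The RNA-seq library BMI prostate gland replicate 2 summed to 301319 TPM over 4 vesicular gland markers, and the small RNA library of that name was closer to BMI vesicular gland replicate 2 (r = 0.989) than to any prostate library (r = 0.987). ACTA1, an actin of skeletal muscle, was at 341 TPM in BMI epididymis replicate 1 and at 689 TPM in DSE bulbourethral gland replicate 3, and the small RNA libraries of those names held 477 and 1081 RPM of the muscle miRNA miR-206. The 5 skeletal muscle markers followed summed to 562 and 1162 TPM there, to 353 TPM in BMI bulbourethral gland replicate 1 and to at most 99.3 TPM in every other library. Counts of called members and of called genes of an imprinting list in the glands are given with and without these 3 libraries. The small RNA library BMI vesicular gland replicate 1 was as close to BMI prostate gland replicate 3 as to its own gland (r = 0.971 for both), and values without it are given for vesicular gland and epididymis.

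A single miRNA carried most of the cluster's reads. MiR-381-3p had a mean of 1201 RPM over the 30 libraries, rank 53 of 743 entries, and made up 87.6% of the summed member RPM of a library on average (74.8% to 93.7%). MiR-127 followed at 112 RPM (rank 161) and made up 8.35% on average. MiR-370 came next at 16.4 RPM (rank 263).

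The other named members were low. Means were 7.95 RPM for miR-411, 5.91 for miR-136-3p, 3.95 for miR-758, 3.80 for miR-493-3p, 3.78 for miR-382, 2.17 for miR-136-5p, 1.82 for miR-323, 1.52 for miR-432-5p and 1.11 for miR-299. MiR-369 (1.003 RPM) and miR-493-5p (0.839 RPM) were the lowest of the 14 distinct members, in 15 entries, that reached at least 1 RPM in at least 3 libraries. The other 6 did not pass that filter and entered no test, namely miR-376a-3p, miR-376a-5p, miR-376c, miR-381-5p, miR-432-3p and miR-487b. None of these 6 exceeded 0.77 RPM in any library.

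Both arms were listed for some hairpins. MiR-381 was read almost entirely as its 3p arm, since the 5p arm was above 0 in 11 of 30 libraries and reached 0.77 RPM at most. MiR-136 gave 5.91 RPM from the 3p arm and 2.17 RPM from the 5p arm, and miR-493 gave 3.80 and 0.839 RPM. MiR-432 went the other way, with 1.52 RPM from the 5p arm and 0.0133 RPM from the 3p arm, and miR-376a was at 0.126 RPM (3p) and 0.0627 RPM (5p). No hairpin had both arms at a mean of 10 RPM, so the balance of arms was not compared between groups.

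The cluster as a whole took a small part of the miRNA reads, from 0.0168% in a DSE vesicular gland library to 0.419% in a BMI bulbourethral gland library. Summed member RPM in BMI was 492.8, 2178 and 1413 in testis, 3226, 2361 and 2118 in epididymis, and 487.3, 1035 and 1057 in vesicular gland. It was 2056, 1549 and 1199.98 in BMI prostate gland and 3514, 1799.6 and 4188 in BMI bulbourethral gland. The bulbourethral gland held the highest BMI sum and the vesicular gland the lowest.

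In DSE the sums were 661, 746 and 497 in testis, 687, 462 and 966 in epididymis, and 249.6, 486 and 168 in vesicular gland. They were 1322, 1110.3 and 1043 in DSE prostate gland and 950.02, 575 and 2348 in DSE bulbourethral gland. The highest DSE value came from bulbourethral gland replicate 3, the library with skeletal muscle markers, and without it the mean of that group was 763 in place of 1291 RPM.

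**Figure D1:**
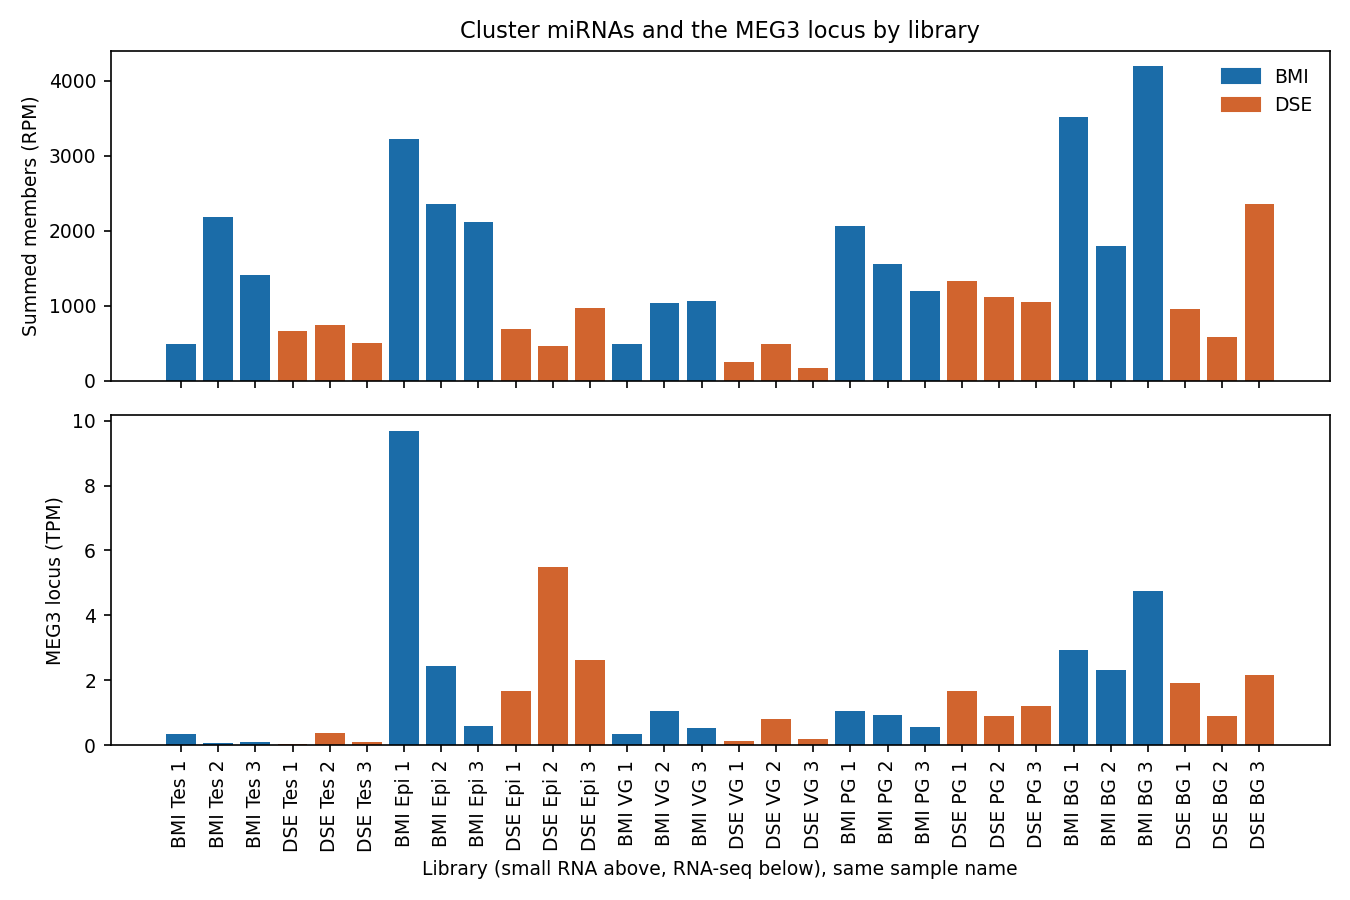
Summed RPM of the cluster miRNAs in each of the 30 small RNA libraries (upper bars) and TPM of the MEG3 locus in the RNA-seq library of the same breed, gland and number (lower bars), with BMI in blue and DSE in orange. The highest sum was 4188 RPM in BMI bulbourethral gland replicate 3, and the highest MEG3 value was 9.68 TPM in BMI epididymis replicate 1.

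Members were often highest in the same library of a group. Of 14 distinct members, 13 were highest in BMI testis replicate 2, the library of its group with the highest sum, against 28.3% of all 526 tested entries. In DSE vesicular gland replicate 2 the count was 13 of 14, against 56.7% of all entries. In BMI bulbourethral gland replicate 3 it was 11 of 14, against 25.7%. The pattern was not uniform, since 4 of 14 were highest in BMI vesicular gland replicate 3, against 19.2%. Counts were 7 in DSE testis replicate 2 (31.2%), 7 in DSE bulbourethral gland replicate 3 (41.4%) and 8 in BMI epididymis replicate 1 (35.2%). They were 9 in BMI prostate gland replicate 1 (34.6%), 9 in DSE prostate gland replicate 1 (17.9%) and 11 in DSE epididymis replicate 3 (57.4%). MiR-381-3p sets most of each sum, so these counts are a description.

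Across glands, 10 of the 14 distinct members had their highest mean in bulbourethral gland and 4 (miR-758, miR-136-5p, miR-323 and miR-369) in epididymis. Of all 526 tested entries, 9.89% had their highest mean in bulbourethral gland, 9.51% in epididymis and 73.4% in testis. The lowest mean was in vesicular gland for 13 of 14 members and in testis for miR-299. Of all tested entries, 41.4% were lowest in vesicular gland. No member had all 6 libraries of a gland above or below all 24 others, against 31.2% of all entries above and 1.33% below in testis and at most 0.380% in any other gland.

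**Figure D2:**
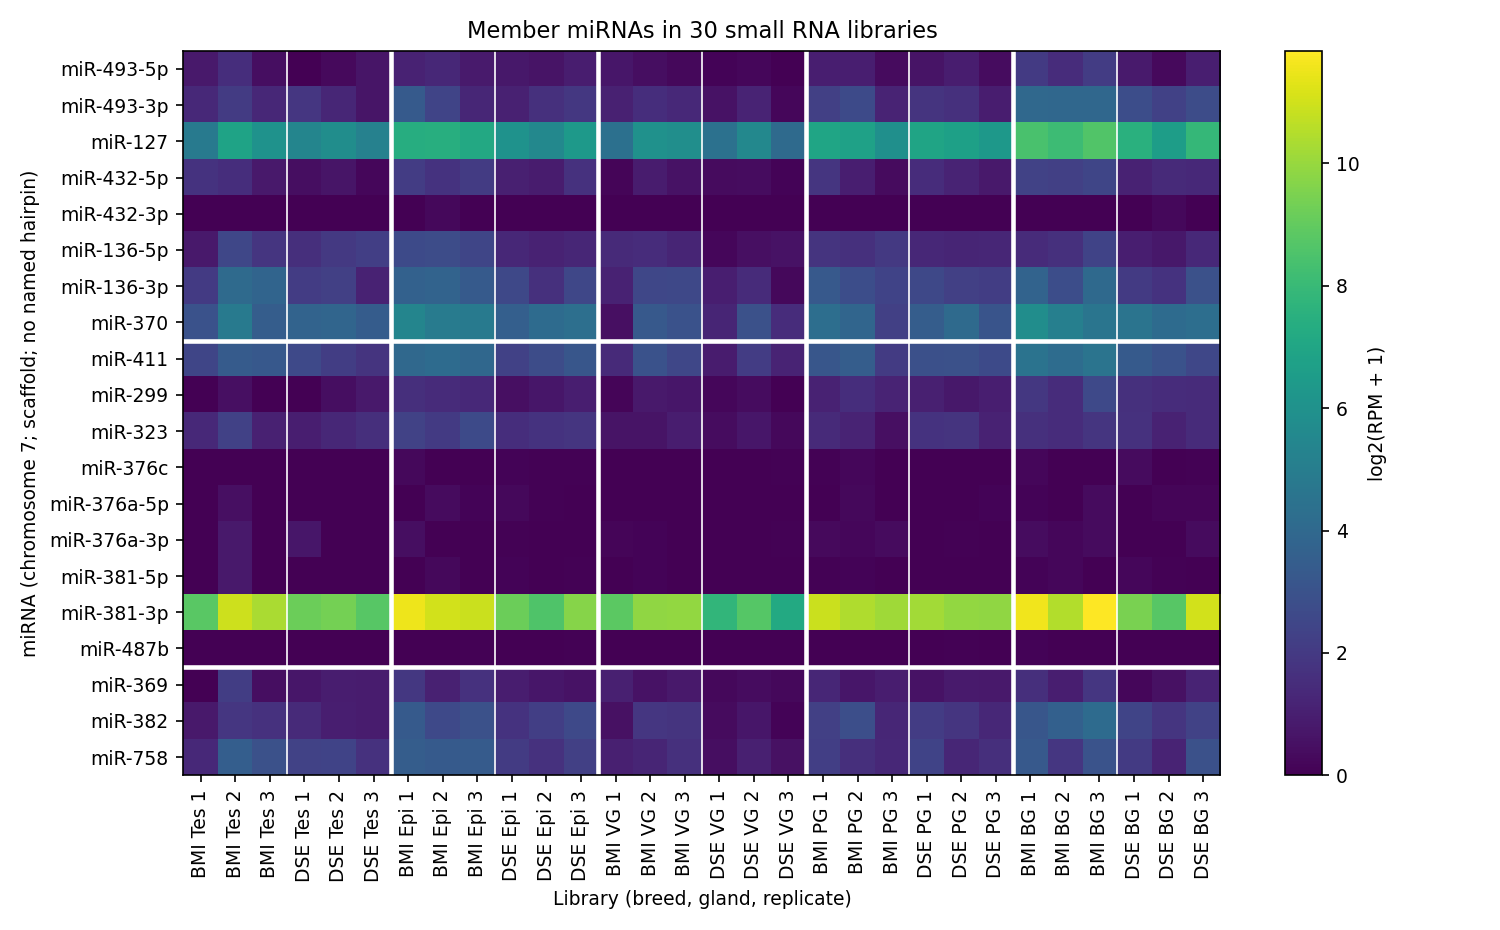
Levels of the member miRNAs (rows) in the 30 small RNA libraries (columns, by gland and breed), with colour as log2(RPM + 1). MiR-381-3p and miR-127 were the brightest rows in every library, with 1201 and 112 RPM on average.

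The first set of tests compared each gland with the mean of the other 4 in a limma fit of all 30 libraries on log2(RPM + 1). A member was called at a Benjamini-Hochberg adjusted p below 0.05, taken over all 526 tested entries, and with a change of at least 1 on the log2 scale, up or down. All log2 fold changes of miRNAs and genes are on this log2(value + 1) scale, which understates changes of low values. The median log2 fold change of all tested entries was 1.34 in testis. It was −0.58 for the vesicular gland, −0.38 for the bulbourethral gland, −0.28 for the prostate gland and −0.20 for the epididymis. Scaling by size factors from the median of ratios, with the filter applied after scaling, moved the testis median to 0.04 and the others to between −0.14 and −0.06, so each member median is given beside that of all entries. Over all entries, calls higher and lower were 31 and 51 in epididymis (43 and 26 with size factors), 21 and 150 in vesicular gland (43 and 66), 18 and 55 in prostate gland (25 and 33) and 33 and 105 in bulbourethral gland (55 and 56). In bulk tissue fewer cells of a type and less RNA per cell cannot be told apart.

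In bulbourethral gland, 5 of 15 member entries rose, and 6.27% of all tested entries were called higher there. The median log2 fold change was 0.83 for the members and −0.38 for all entries. The 5 were miR-127, miR-493-3p, miR-370, miR-382 and miR-299. Of these, miR-127, miR-493-3p and miR-370 lie on chromosome 7 and miR-299 on the scaffold. In RNA-seq all 6 epithelium markers, 3 of 6 fibroblast markers and 3 of 6 macrophage markers were also called higher in this gland, and 5 of 6 smooth muscle markers were called lower. Of 4 tested neuron and glia markers 2 were called lower, and of 3 tested skeletal muscle markers 1 was called higher. Epithelium markers summed to 2530 to 3000.4 TPM in bulbourethral gland and to at most 2489 TPM elsewhere, while fibroblast sums (504 to 2766 TPM) overlapped those of other glands. Their part in the member levels was not tested.

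MiR-127, which lies opposite to RTL1, ranged from 96.3 to 396 RPM (median 255) in the 6 bulbourethral gland libraries. Its range was 44.4 to 172 RPM (median 110.5) in epididymis, 58.5 to 125 (median 107.2) in prostate gland, 27.8 to 117 (median 48.0) in testis and 16.1 to 63.4 (median 32.4) in vesicular gland. The log2 fold change in bulbourethral gland was 1.87 ± 0.27 (SE; adjusted p = 3.09e-06). The lowest bulbourethral gland library, DSE replicate 2, lay inside the ranges of epididymis, prostate gland and testis. MiR-127 made up 9.46% to 19.3% of the summed member RPM in bulbourethral gland and at most 9.61% in the other glands.

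MiR-493-3p ranged from 3.89 to 15.0 RPM (median 10.3) in bulbourethral gland. Its highest libraries elsewhere were at 9.24 RPM (epididymis), 5.40 (prostate gland), 3.10 (testis) and 1.97 (vesicular gland). The log2 fold change was 1.76 ± 0.24 (adjusted p = 1.82e-06). Only vesicular gland and testis lay entirely below the bulbourethral gland.

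The other members that rose in bulbourethral gland changed by 1.28 ± 0.34 for miR-370 (adjusted p = 0.00273), 1.24 ± 0.22 for miR-382 (adjusted p = 5.73e-05) and 1.04 ± 0.15 for miR-299 (adjusted p = 3.19e-06). MiR-299 was at or below 0.73 RPM in testis, under the floor in the 4 shallow libraries, so a difference from testis rests on few reads. MiR-381-3p had the highest gland mean here (1887 ± 1280 RPM, SD, n = 6), but its log2 fold change of 0.85 ± 0.30 (adjusted p = 0.018) stayed under 1. It passed with size factors (1.299), with edgeR (1.53), without BMI bulbourethral gland replicate 2 (1.06) and without DSE bulbourethral gland replicate 2 (1.10). Size factors gave 8 members higher, and edgeR on reads recovered from 28 libraries gave 12 (85 of 526 over all entries), and both included these 5. Without the 3 libraries that stood apart 6 rose, the same 5 and miR-411. Among BMI libraries alone the call of miR-370 was lost (1.54, adjusted p = 0.062).

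In vesicular gland, 8 of 15 member entries fell, and 28.5% of all tested entries were called lower there. The member median was −1.11 and that of all entries −0.58. All 15 member log2 fold changes were negative, as were 441 of 526 over all entries. In RNA-seq 4 of 6 smooth muscle and 2 of 6 epithelium markers were called higher in this gland, 2 of 6 endothelium markers lower, macrophage markers in both directions (1 of 6 higher and 2 lower), and 0 of 6 fibroblast markers in either direction. Also called lower were 1 of 4 tested neuron and glia markers and 1 of 3 tested skeletal muscle markers. Their part in the member levels was not tested.

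The largest of these was that of miR-370, which had a median of 4.30 RPM in vesicular gland and was lowest there in BMI replicate 1 (0.40 RPM). Its medians elsewhere were 23.4 RPM (epididymis), 23.2 (bulbourethral gland), 11.9 (prostate gland) and 11.5 (testis). Its log2 fold change was −2.05 ± 0.34 (adjusted p = 1.68e-05). Vesicular gland values overlapped those of testis and prostate gland, whose lowest libraries were at 6.95 and 3.80 RPM.

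MiR-381-3p ranged from 146 to 972 RPM (median 441) in vesicular gland, 435 to 1969.8 (median 621) in testis and 378 to 2942 (median 1360) in epididymis. It ranged from 937 to 1872 RPM (median 1140) in prostate gland and from 439 to 3666 (median 1741) in bulbourethral gland. Ranked by mean over both breeds the order was bulbourethral gland, epididymis, prostate gland, testis and vesicular gland, and the ranges of each pair of neighbours overlapped. In DSE the order differed, with the prostate gland (mean 1021 RPM) above the epididymis (599 RPM). The DSE bulbourethral gland mean was 1069 RPM, or 574 RPM without replicate 3. The log2 fold change in vesicular gland was −1.39 ± 0.30 (adjusted p = 0.000301).

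MiR-127 fell by 1.66 ± 0.27 on the log2 scale in vesicular gland (adjusted p = 1.13e-05). The other 5 members that fell were miR-758 (−1.31), miR-411 (−1.29), miR-382 (−1.28), miR-136-3p (−1.25) and miR-493-3p (−1.11), with adjusted p of at most 0.00046. Size factors left 2 of the 8, miR-370 and miR-382. With edgeR 8 members were lower (78 of 526 over all entries), of which 5 were among those named here. MiR-381-3p was not called by either alternative (log2 fold change −0.65 with size factors and −0.73 with edgeR). Without the 3 libraries that stood apart, 7 of the 8 remained. Without BMI vesicular gland replicate 1 the count was 8.

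**Figure D3:**
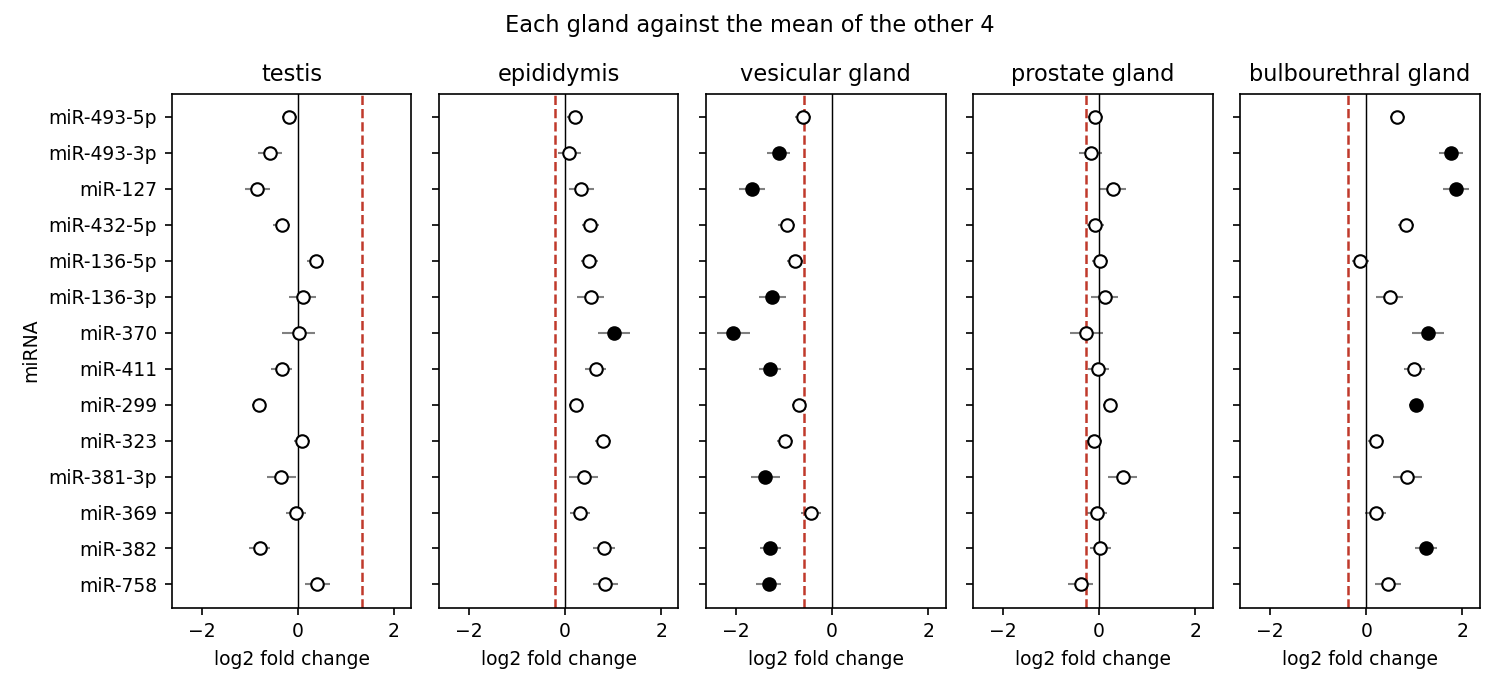
Log2 fold change of each distinct member in each gland against the mean of the other 4 glands (points, with SE as bars), with filled points for members that passed the test and the red dashed line at the median of all 526 tested entries. In bulbourethral gland 5 points are filled on the right, in vesicular gland 8 on the left and in epididymis 1 on the right, while testis and prostate gland have none.

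In epididymis 1 of 15 entries rose, against 5.89% of all tested entries. MiR-370 had a log2 fold change of 1.02 ± 0.34 (adjusted p = 0.0202), with 11.11 to 40.8 RPM (median 23.4) in the 6 libraries. This call was lost when any 1 of 11 libraries was left out, BMI epididymis replicate 1 (0.94) and BMI vesicular gland replicate 1 (0.91) among them, and without the 3 libraries that stood apart (0.96, adjusted p = 0.0594). All 15 member fold changes were positive, while 354 of 526 over all entries were negative, with a median of 0.51 against −0.20. The epididymis had the highest level of smooth muscle transcripts, with 6 markers that summed to 2363 to 21476 TPM against at most 4457 TPM in the other glands. All 6 were called higher there, as were 5 of 6 fibroblast and 4 of 6 epithelium markers. So were 2 of 4 tested neuron and glia markers and 1 of 3 tested skeletal muscle markers. Their part in the member levels was not tested.

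In testis 0 of 15 entries passed, against 59.1% called higher and 4.18% called lower over all entries, and 5 entries had an unadjusted p below 0.05, against 85.4% over all entries. The member median was −0.17, with 10 of 15 negative, and that of all entries was 1.34, with 77 of 526 negative. Size factors called 8 members lower (median −1.06, against 0.04 for all), and edgeR called all 15 entries lower (median −1.96, against −0.16 for all), against 141 of 526 over all entries. Without the 3 libraries that stood apart the count stayed at 0. Over all tested entries the testis calls were 311 higher and 22 lower as RPM, and 114 higher and 78 lower with size factors. The median member therefore lay below the median entry in testis on each scale, and its distance from 0 depended on the scale.

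In prostate gland 0 of 15 entries passed, against 3.42% called higher and 10.5% called lower over all entries, and 0 entries had an unadjusted p below 0.05, against 44.9% over all entries. The member median was −0.04 with RPM, against −0.28 over all entries, and 0.05 with size factors, against −0.11. Without the 3 libraries that stood apart the count stayed at 0. One member, miR-299, was higher with edgeR, which called 50 of 526 entries higher.

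The second set of tests compared DSE with BMI inside each gland, in a limma fit of the 6 libraries of that gland with the same threshold. In bulbourethral gland 3 of 15 member entries were lower in DSE, and 3.99% of all tested entries were called lower there. These were miR-493-3p, miR-411 and miR-432-5p.

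MiR-493-3p was at 15.0, 14.6 and 14.7 RPM in BMI bulbourethral gland and at 5.94, 3.89 and 5.63 RPM in DSE. The groups did not overlap, and the SD of the BMI libraries was 0.211 RPM. The log2 fold change of DSE against BMI was −1.37 ± 0.15 (adjusted p = 0.0292).

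MiR-411 was at 21.6, 17.3 and 22.7 RPM in BMI and at 9.08, 6.85 and 4.69 RPM in DSE (log2 fold change −1.48 ± 0.25, adjusted p = 0.0406). MiR-432-5p was at 4.05, 3.75 and 4.56 RPM in BMI and at 1.16, 1.67 and 1.60 RPM in DSE (−1.05 ± 0.12, adjusted p = 0.0292). Neither overlapped between the breeds. Without DSE bulbourethral gland replicate 3, the library with muscle markers, 3 members still passed.

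These calls depended on the other libraries and on the scale. No member passed without BMI bulbourethral gland replicate 1, 2 or 3 or without DSE bulbourethral gland replicate 1, and miR-493-3p alone passed without DSE replicate 2. No member passed with size factors, with edgeR or with a filter set on the 6 libraries of the gland alone. MiR-411 was also lost with no filter on low values (adjusted p = 0.0676) and miR-493-3p in a single fit of all 30 libraries (adjusted p = 0.0525). With size factors the log2 fold changes were −0.70, −0.78 and −0.54 for miR-493-3p, miR-411 and miR-432-5p.

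MiR-381-3p did not pass in bulbourethral gland, with 3027, 1425 and 3666 RPM in BMI and 710.1, 439 and 2058 RPM in DSE, so that the breeds overlapped (−1.54, adjusted p = 0.23, or −0.76 with size factors and −0.65 with edgeR).

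In bulbourethral gland all 15 member fold changes were negative, as were 428 of 526 over all entries. The member median was −1.05, against −0.41 over all entries, and 8 of 15 entries did not overlap between the breeds and were lower in DSE, against 30.6% of all entries. With size factors 13 of 15 were negative, against 46.0% over all entries, with a median of −0.58 against 0.01 over all entries.

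In epididymis 0 of 15 entries passed, against 0.380% of all entries called lower and 0% called higher, and 12 had an unadjusted p below 0.05 in limma, against 14.4% over all entries. All 15 member fold changes were negative, as were 451 of 526 over all entries, with a median of −0.82 against −0.54. In 12 of 15 entries the breeds did not overlap and DSE was lower, against 19.8% of all entries. With size factors 14 of 15 were negative, against 54.3% over all entries, with a median of −0.45 against −0.03.

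MiR-381-3p was at 2942, 2094 and 1890.2 RPM in BMI epididymis and at 587, 378 and 831 RPM in DSE epididymis. All DSE libraries lay below all BMI libraries, and the log2 fold change was −1.99 ± 0.36 (adjusted p = 0.168), or −1.80 without BMI epididymis replicate 1. With size factors it was −1.24 and with edgeR −1.22. MiR-136-5p was at 5.40, 5.69 and 4.48 RPM in BMI and at 1.49, 1.17 and 1.43 RPM in DSE, with the smallest adjusted p of the members in this gland (−1.39, adjusted p = 0.0616). A single fit of all 30 libraries, which shares one spread over the glands, called 4 members in epididymis, namely miR-136-5p, miR-381-3p, miR-411 and miR-758, and 52 of 526 over all entries as lower.

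In vesicular gland 0 of 15 entries passed, and 0% of all entries were called in either direction, while 5 member entries (4 distinct members) had an unadjusted p below 0.05 in limma, against 25.5% over all entries. With edgeR 0 members and 4 of all entries passed. MiR-381-3p was at 457, 939 and 972 RPM in BMI and at 224, 425 and 146 RPM in DSE, with no overlap (−1.63 ± 0.52, adjusted p = 0.161, or −1.003 with size factors). All 15 member fold changes were negative (median −0.63), as were 393 of 526 over all entries (median −0.39), and 6 of 15 entries did not overlap and were lower in DSE, against 30.8% of all entries. With size factors 14 of 15 were negative, against 53.6% over all entries.

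In testis and prostate gland no member passed. The background was 4.18% called higher and 2.66% called lower in testis, and 0.190% and 0% in prostate gland. Unadjusted p was below 0.05 for 2 entries in testis (26.6% of all entries) and 1 in prostate gland (9.89%). EdgeR called 0 members in both, against 38 of 526 entries in testis and 3 in prostate gland. MiR-381-3p was at 441, 1969.8 and 1300.2 RPM in BMI testis and at 585, 656.03 and 435 RPM in DSE testis, so that the breeds overlapped.

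In prostate gland miR-381-3p was at 1872, 1387 and 1119 RPM in BMI and at 1161, 964 and 937 RPM in DSE (−0.49 ± 0.22, adjusted p = 0.576). In testis 13 of 15 entries were negative, against 293 of 526 over all entries, and the medians were −0.35 and −0.10. In prostate gland 10 of 15 were negative, against 319 of 526, and the medians were −0.21 and −0.09. Entries that did not overlap and were lower in DSE numbered 1 in testis (19.2% of all entries) and 2 in prostate gland (9.70%). No member in any gland was higher in DSE without overlap. Over all entries this share was 14.6% in testis and at most 2.28% elsewhere.

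**Figure D4:**
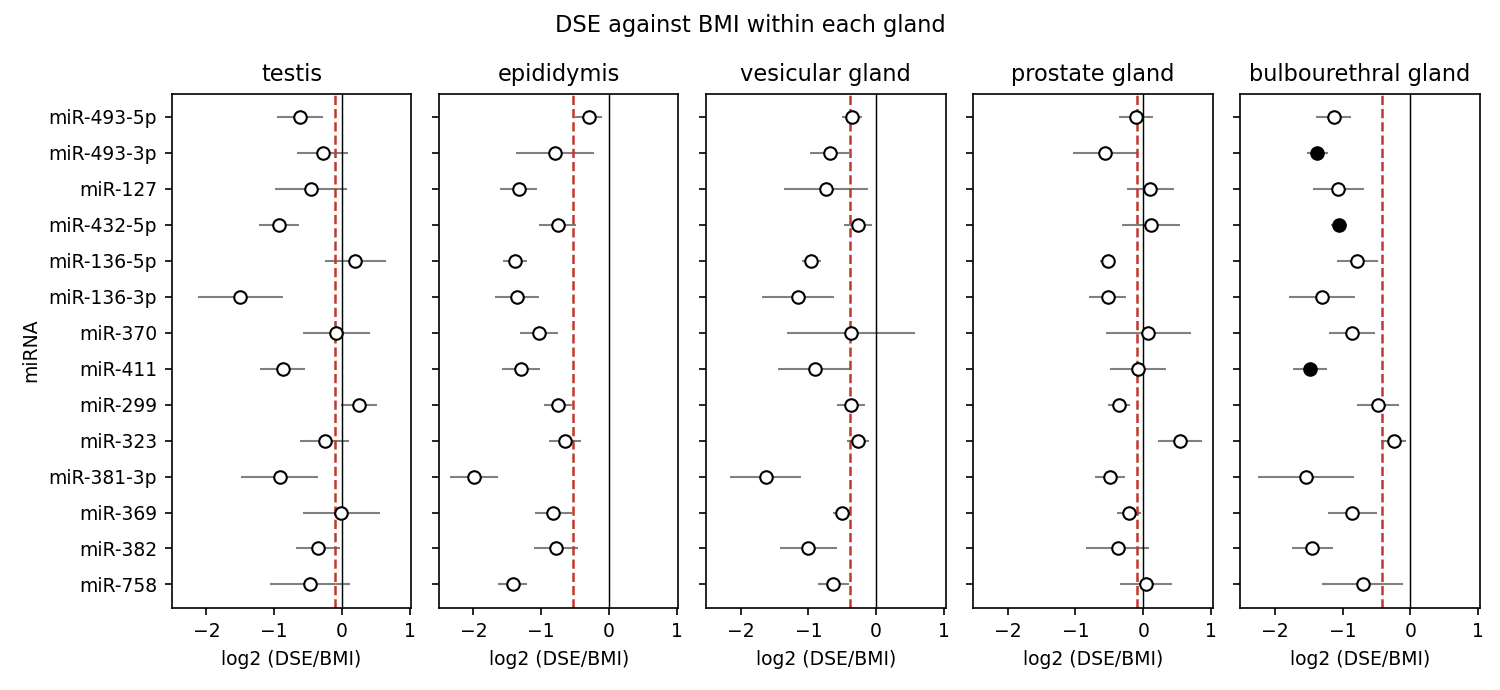
Log2 fold change of DSE against BMI for each distinct member inside each gland (points, with SE as bars), with filled points for members that passed the test and the red dashed line at the median of all 526 tested entries. The 3 filled points are miR-493-3p, miR-432-5p and miR-411 in bulbourethral gland, and all points lie left of 0 in epididymis, vesicular gland and bulbourethral gland.

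**Figure D5:**
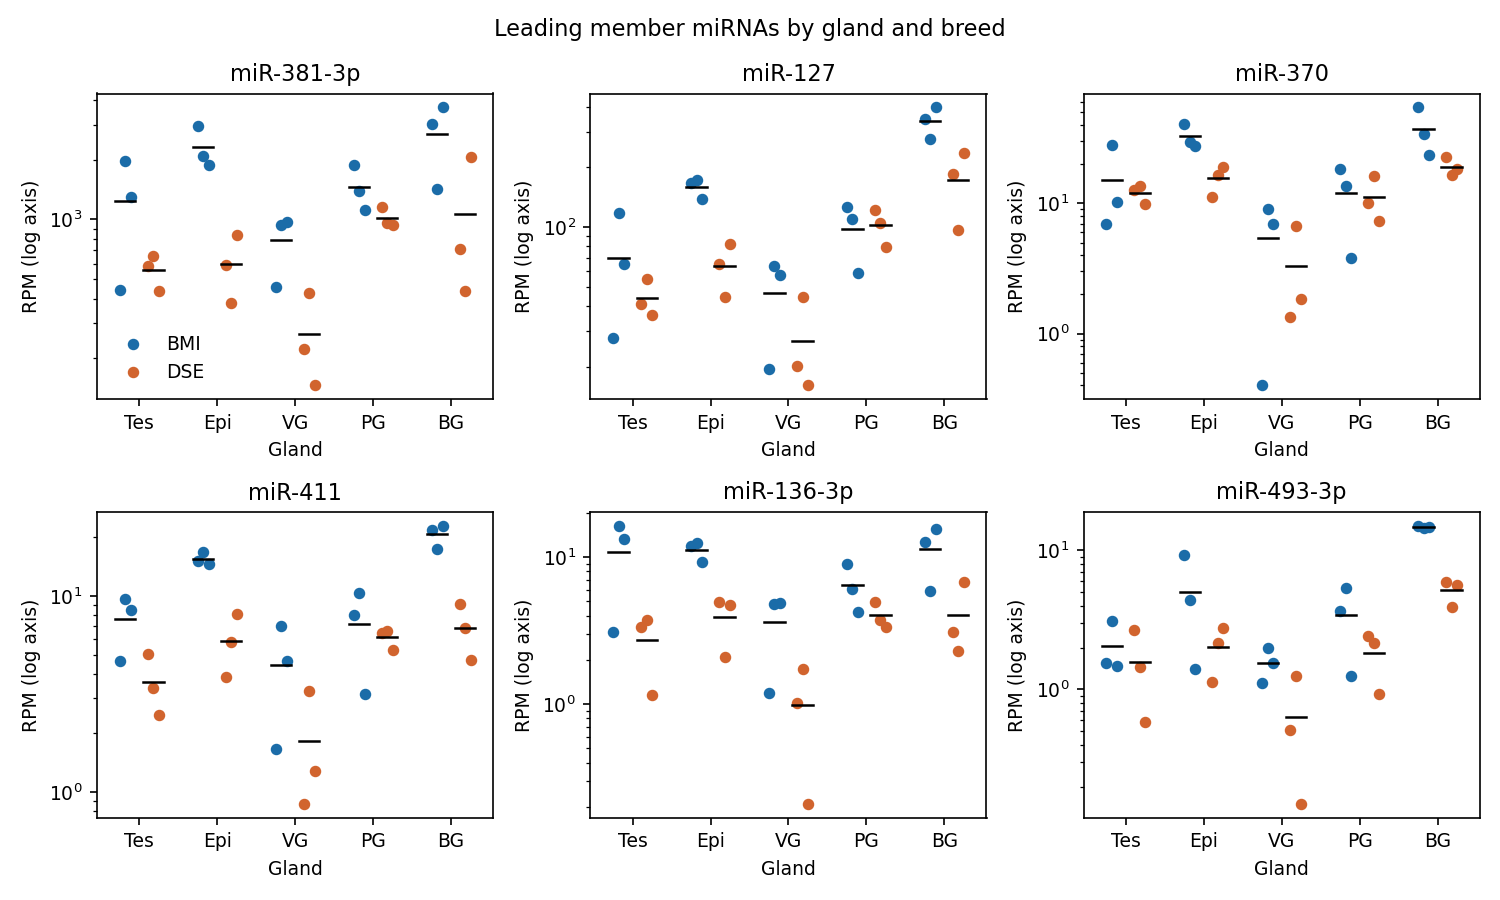
RPM in each of the 30 small RNA libraries for leading members, by gland (Tes and Epi for testis and epididymis, BG for bulbourethral, PG for prostate and VG for vesicular gland) and breed, on a log axis with 1 point per library and a bar at the mean of the 3 libraries. MiR-493-3p in bulbourethral gland lies at 14.6 to 15.0 RPM in BMI and at 3.89 to 5.94 RPM in DSE.

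Whether the breed difference itself varied between the glands was tested with an interaction term over all 30 libraries. It was called for 0 of 15 member entries, against 4.75% of all entries, and 1 member entry had an unadjusted p below 0.05, against 15.8% over all entries. EdgeR called 0 as well, against 2 of 526 over all entries. The breed differences above are therefore not shown to differ between glands. As ratios of means, miR-381-3p was 3.86 times higher in BMI in epididymis. The ratio was 2.98 for the vesicular gland, 2.53 for the bulbourethral gland (4.71 without DSE bulbourethral gland replicate 3, the library with muscle markers), 2.21 for the testis and 1.43 for the prostate gland.

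Transcripts of the protein-coding and long non-coding genes of the cluster were read from the RNA-seq libraries as TPM summed over each gene, and log2(TPM + 1) of 19796 genes was tested as for miRNAs. The labels name rRNA depletion for these libraries and the study's methods name selection of poly-A RNA, so that low values of RNAs with little or no poly-A cannot be told apart from losses in preparation. DLK1, a membrane protein that inhibits Notch signalling, was at 0.121 to 0.726 TPM in testis and at most 0.403 TPM elsewhere. RTL1, a retrotransposon-derived gene of the placenta and muscle, did not exceed 0.0751 TPM. Both stayed under the filter of 1 TPM in 3 libraries.

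The MEG3 locus, the annotated start of the maternal RNAs, was at 9.68, 2.44 and 0.592 TPM in BMI epididymis and at 1.66, 5.48 and 2.62 TPM in DSE epididymis. It was at 2.93, 2.32 and 4.76 TPM in BMI bulbourethral gland and at 1.93, 0.898 and 2.16 TPM in DSE bulbourethral gland. In testis it ranged from 0.0264 to 0.375 TPM, in vesicular gland from 0.119 to 1.07 and in prostate gland from 0.572 to 1.66. Testis lay below all libraries of epididymis, prostate gland and bulbourethral gland. The file gives no symbol to this gene, which overlaps MEG3 of RefSeq and also a model on the opposite strand, and whether counting used the strand is not given in the sources used here.

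MEG3 rose in epididymis (log2 fold change 1.09 ± 0.24, adjusted p = 0.000508) and fell in testis (−1.10 ± 0.24, adjusted p = 0.000253). In bulbourethral gland it was at 0.78 and did not pass. The epididymis call was lost without BMI epididymis replicate 1 (0.72), without DSE epididymis replicate 2 (0.91), with size factors (0.76) and among BMI libraries alone (0.99, adjusted p = 0.0594). Without the 3 libraries that stood apart both the epididymis call (0.75) and the testis call (−0.99) were lost.

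DIO3, the enzyme that inactivates thyroid hormone, ranged from 1.41 to 10.2 TPM (median 3.69) in bulbourethral gland and from 0 to 0.448 TPM (median 0.196) in testis. It rose in bulbourethral gland (1.18 ± 0.27, adjusted p = 0.000775) and fell in testis (−1.30 ± 0.27, adjusted p = 0.00013). The bulbourethral gland call was lost without DSE bulbourethral gland replicate 3 (0.85) and without the 3 libraries that stood apart (0.93). It was also lost among DSE libraries alone (1.10, adjusted p = 0.0632). No cluster gene was called between the breeds in any gland. The gene model taken as DIO3 spans positions 470640 to 505142 of the scaffold, while RefSeq places DIO3 at 504081 to 506187. Its TPM can therefore not be assigned to the transcript of the enzyme alone.

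Full-length reads of the cluster were few. Iso-seq held 10 reads of an isoform at the MEG3 locus, 6 of them in BMI bulbourethral gland and 1 each in both vesicular gland libraries, DSE prostate gland and DSE bulbourethral gland. BEGAIN, the gene next to DLK1, had 3 reads in DSE testis. The gene model taken as DIO3 had 2 antisense isoforms, with 2 reads in DSE epididymis for the first, and 3 in DSE epididymis and 1 in BMI prostate gland for the other. With 1 library per group these counts have no replicate check.

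A list of 25 tested genes held 17 imprinted genes outside the cluster, the cluster genes MEG3, DIO3 and BEGAIN, and 5 genes that keep imprints and are not counted as imprinted themselves. In testis 9 list genes rose and 3 fell (10 and 2 without the 3 libraries that stood apart), against 34.6% of all genes called higher and 12.7% called lower. Of the 17 imprinted genes outside the cluster, 5 rose and 1 fell. MEST, a paternally expressed gene, was at 7.72 to 30.3 TPM (median 24.2) in testis and at most 10.7 TPM elsewhere (log2 fold change 3.63 ± 0.21, adjusted p = 2.93e-14). The others with the largest change in testis were KCNQ1, a potassium channel (3.28), and PPP1R9A, which binds protein phosphatase 1 (2.60).

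Of the 5 genes that keep imprints through cell division, 4 rose in testis. These were UHRF1 (2.57), which recruits the maintenance DNA methyltransferase, DNMT1 (2.07), which is that enzyme, TRIM28 (2.56), a co-repressor, and ZFP57 (1.38), the zinc finger protein that binds imprinted regions. All 6 Leydig cell markers also rose in testis, where they summed to 18624 to 63648 TPM against at most 4.08 TPM in the other glands. All 5 germ cell markers rose as well, with sums of 22516 to 98757 TPM in testis and at most 901 TPM elsewhere. Of 6 Sertoli cell markers 4 rose and 1 fell, and all 6 epithelium markers fell. All 6 smooth muscle, 5 of 6 fibroblast and 4 of 6 macrophage markers also fell in testis, as MEG3 and DIO3 did, and 1 macrophage marker rose. Of 4 tested neuron and glia markers 3 rose and 1 fell. The part of cell types in these levels was not tested.

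In epididymis 6 list genes rose and 1 fell (4 and 1 without the 3 libraries), against 15.1% and 6.56% of all genes. With size factors 1 list gene rose and 1 fell in this gland, against 1690 and 1811 of 19557 genes. NDN, a paternally expressed growth suppressor, rose by 1.61 ± 0.22 (adjusted p = 1.12e-06), UHRF1 rose by 1.32, and KCNQ1 fell by 4.53 ± 0.25 (adjusted p = 3.32e-13). KCNQ1 was at 0.28 to 4.03 TPM (median 2.73) in epididymis and at 16.3 TPM or more in every library of the other glands. Leaving out BMI epididymis replicate 1 left 3 calls, and UHRF1 was lost without BMI epididymis replicate 2 (0.85) or DSE epididymis replicate 3 (0.72). UHRF1 was also lost with size factors (0.95) and among DSE libraries alone (1.27, adjusted p = 0.123).

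In vesicular gland 1 list gene rose and 6 fell (the same counts without the 3 libraries), against 2.95% and 30.1% of all genes. With size factors 2 list genes rose and 2 fell in this gland, against 1448 and 2380 of 19557 genes. PEG10, a retrotransposon-derived paternally expressed gene, was at 13.5 to 71.6 TPM (median 44.8) there and rose by 3.39 ± 0.40 (adjusted p = 1e-07). UHRF1 (−1.998) and MEST (−1.50) fell. PEG10 reached 17.1 TPM in the prostate gland libraries. The median over the list was −0.67 and that over all genes −0.69. With size factors these medians were −0.10 and −0.20.

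In prostate gland 0 list genes rose and 4 fell (1 and 4 without the 3 libraries), against 3.69% and 12.8% of all genes, with UHRF1 (−1.79), MEST (−1.65) and PEG10 (−1.32) the largest. PEG10 was lost without BMI prostate gland replicate 3 (−0.89), which left 2 calls. In bulbourethral gland 4 rose and 2 fell (3 and 4 without the 3 libraries), against 8.45% and 12.0% of all genes. PEG10 fell by 2.43 ± 0.40 (adjusted p = 1.85e-05), KCNQ1 rose by 1.995 ± 0.25 (adjusted p = 3.22e-07) and MEST fell by 1.49 ± 0.21.

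Between the breeds 0 of the 25 list genes were called in any gland by limma, and those with an unadjusted p below 0.05 numbered 4 in prostate gland (26.6% of all genes), 4 in vesicular gland (15.6%), 2 in testis (12.6%), 1 in bulbourethral gland (6.6%) and 1 in epididymis (2.79%). Of all genes, 0.0404% were called higher and 0.121% lower in testis, 0.00505% and 0.0101% in vesicular gland, and 0.470% and 0.0505% in prostate gland, and 0% in either direction in the other glands. Fibroblast markers, of which 6 were followed, summed to 638 to 1228 TPM in BMI vesicular gland and to 181 to 434 TPM in DSE vesicular gland, a gland in which miR-381-3p did not overlap between the breeds. Epithelium markers also did not overlap there, at 1294 to 1474 TPM in BMI and 781 to 1107 TPM in DSE. Over all genes of the vesicular gland, 15406 of 19796 fold changes were negative in DSE (median −0.27). With size factors 9320 of 19557 were negative (median 0). The share of all genes without overlap was not computed. In epididymis, where miR-381-3p did not overlap either, fibroblast sums were 507 to 8619 TPM in BMI and 428 to 3620 TPM in DSE and overlapped. In prostate gland the mean fibroblast sum was higher in DSE (1017 TPM) than in BMI (576 TPM). In bulbourethral gland fibroblast sums overlapped, at 1169 to 2766 TPM in BMI and 504 to 1819 TPM in DSE (means 1738 and 1036). No marker of either list was called between the breeds in any gland. Their part in the lower miRNA levels of DSE was not tested.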

How the data were processed

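Per the labels, 30 small RNA, 30 RNA-seq and 10 Iso-seq libraries of 2 breeds and 5 glands were used. The RPM of known and predicted miRNAs was computed by the authors with miRDeep2 after removing rRNA, tRNA, snRNA and snoRNA reads with bowtie 1.3.1. The deposited RNA-seq values are TPM per transcript, which the authors obtained with salmon 1.9.0 on Sscrofa11.1, and they were summed here to 35552 genes. Iso-seq was deposited as full-length read counts per isoform, which were not normalized. Transcript coordinates came from the deposited annotation and mature miRNA positions from RefSeq.

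Entries with at least 1 RPM (or genes with at least 1 TPM) in at least 3 of 30 libraries were fitted with limma 3.58.1 in R 4.3.3 as log2(value + 1), with 1 mean per breed and gland for glands and for the interaction, and with the 6 libraries of a gland for breeds. Calls needed a Benjamini-Hochberg adjusted p below 0.05 over all tested features and a change of at least 1 on the log2 scale (interaction: adjusted p alone). Whole reads were recovered from the RPM step, with 100% of values below 20 RPM whole within 0.005 RPM, in 28 libraries for edgeR 4.0.16. BMI epididymis replicate 3 and DSE vesicular gland replicate 2 were left out of edgeR. Scripts were tested on simulated data.

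Named miRNAs are the 12 members with the highest mean, the 3 highest and 3 lowest called members of each gland and each member called between breeds. Named genes are cluster genes and the 3 list genes with the largest change per comparison. Other members and genes were named after their values were seen. Members, lists and tests were chosen with earlier results of these data known. Alternatives were a pseudocount of 0.1, no filter, size factors, a replicate block, one fit for breeds, each breed alone, known entries alone, one entry per name, edgeR and leaving out each library, and after the data were seen a filter within a gland and leaving out libraries that stood apart.

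The labels do not say whether libraries of the same replicate number came from the same boar, and the paper speaks of paired samples. Correlations between same-numbered libraries could not settle this, and the main fits treated libraries as independent.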

Additional observations from a re-analysis of the deposited data

Results flagged for a closer look

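Beside the named members, the table lists 22 predicted miRNAs on the unplaced scaffold that carries miR-381 and DIO3. They are no members, but the 14 of them that passed the filter are among the 526 tested entries and count in the percentages over all entries. They were chosen by the scaffold in their names after the data were seen, and are listed because their sum in every library exceeded the level of 3 reads, with no control libraries to set them against. Their summed level was 795 RPM in testis, 609 RPM in epididymis, 421 RPM in vesicular gland, 392.3 RPM in prostate gland and 408 RPM in bulbourethral gland, each as the mean over 6 libraries. A library held 176 to 1093 RPM in all. A few entries carried the sums, since the highest of the 22 had a mean of 359 RPM and the median of their means was 1.62 RPM. Single outlying libraries were not tested in groups of 3, and no member had a breed difference that was called to vary between glands.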

How the results depend on the processing

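Counts of called member entries, with miR-369 listed 2 times, are given for testis, epididymis, vesicular, prostate and bulbourethral gland in this order, with 0, 1, 8, 0 and 5 as the values reported. A pseudocount of 0.1 gave 1 lower (6.27% of all entries), 5 higher (9.32%), 13 lower (41.4%), 0 and 8 higher (8.75%). Size factors gave 8, 2, 2, 0 and 8, and edgeR gave 15, 5, 8, 1 and 12. The 5 members that edgeR called in epididymis were higher, against 82 of 526 over all entries. BMI libraries alone gave 2 in testis and 2 in epididymis, and DSE libraries alone gave 0 in epididymis and 3 in bulbourethral gland. In such fits, miR-381-3p turned to −0.0237 in prostate gland (BMI alone) and to −0.0356 in epididymis (DSE alone). Without BMI epididymis 1, BMI prostate gland 2 and DSE bulbourethral gland 3, epididymis had 0. For breeds, where 3 members were called in bulbourethral gland and 0 elsewhere, epididymis had 1 with no filter on low values, 4 in one fit of all libraries and 1 with one entry per name. Bulbourethral gland had 5 among known entries alone, and 0 with size factors, with edgeR and with the filter within the gland. In this section, counts without a share over all entries or genes show only how far the calls moved with the processing. The cause of these changes was not tested.

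Leaving out 1 library gave 0 to 1, 0 to 1, 7 to 9, 0 to 0 and 4 to 7 members by gland, where the 1 in testis came without BMI testis replicate 2. Breed counts were 0 to 3 in bulbourethral gland and 0 in the others, and the interaction called 0 to 1, with 1 without BMI testis replicate 2. Mean sums ranged for BMI over 953 to 1796 RPM in testis, 2239 to 2793 in epididymis, 761 to 1046 in vesicular gland, 1375 to 1802 in prostate gland and 2657 to 3851 in bulbourethral gland, and for DSE over 579 to 704, 575 to 827, 209 to 368, 1077 to 1216 and 763 to 1649, the last being 763 without replicate 3. Of the 25 list genes, keepers of imprints included, 12, 7, 7, 4 and 6 were called, and leaving out 1 library gave 11 to 13, 3 to 8, 7 to 8, 2 to 5 and 6 to 7, and 0 to 2 between breeds in prostate gland (2 without DSE prostate gland replicate 2). Size factors gave 2 in epididymis and 4 in vesicular gland, a pseudocount of 0.1 gave 10 in bulbourethral gland, BMI alone gave 4 in epididymis and 7 in prostate gland, DSE alone gave 11 in vesicular gland and 2 in prostate gland, and one fit gave 1 between breeds in vesicular gland.

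The replicate block changed no count of members (3 between breeds in bulbourethral gland) or of list genes, although miR-411 was lost (adjusted p = 0.0722) and miR-493-5p was called in its place. Deviations of same-numbered small RNA libraries correlated above 0.1 in 22 of 60 pairs across glands and in 6 of 15 across breeds. For RNA-seq this held in 21 of 60 and 4 of 15. With so few libraries per group these values cannot show whether same-numbered samples came from the same boar. Depth limits the lowest members in testis.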
